A study of Mus musculus with 60 samples.

Results

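Enpp2, Ccdc194 and Tgm3 were followed as 3 genes that mouse embryonic stem cells transcribed in serum medium and that were counted near 0 at some time after transfer to 2i. They were picked by name, out of 50559 genes in the count table, because they were counted at 0 h and close to 0 in 2i in the 1A wild type line. All 3 were among the 15083 genes that passed the filter on low counts. The 1A wild type values chose the genes and are therefore given below as a description without any test. The other 3 lines took no part in the choice and carry the tests.

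The study converted embryonic stem cells, cultured on gelatin in medium with serum and the cytokine LIF, to 2i medium and measured polyadenylated RNA at 0, 12, 24, 48 and 96 h. 2i was made by adding 2 kinase inhibitors, CHIR99021 at 3 µM against GSK3 and PD0325901 at 1 µM against MEK, with daily exchange. The 4 lines were 1A wild type, V19 wild type (independently derived), and Eed knockout and Ezh2 knockout derivatives of 1A made with Cas9. Each of the 20 groups of line and time had 3 libraries, labelled as biological replicates, which gave 60 libraries. The labels do not say whether these came from separate cultures started independently, so the tests measure the spread between these libraries. Each knockout was 1 line, so that what the mutation did and what else sets that line apart cannot be told apart.

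As background, 2i holds embryonic stem cells in a naive ground state by blocking the MEK-ERK arm of FGF signalling and by relieving the inhibition of beta-catenin. Polycomb repressive complex 2 places a methyl mark on a histone H3 lysine that goes with silent genes. Ezh2 is its enzyme subunit, and without its partner Eed the complex loses activity. Enpp2 encodes autotaxin, a secreted lysophospholipase D that makes lysophosphatidic acid (LPA), a lipid that signals through G protein-coupled receptors. Tgm3 encodes a transglutaminase best known from skin and hair, where it cross-links proteins of the cornified envelope. Ccdc194 is named for a coiled-coil domain.

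In the GRCm39 assembly Enpp2 lies on the minus strand of chromosome 15, from 54702297 to 54816284, with 3995 exonic bases in the deposited annotation. Ccdc194 lies on the minus strand of chromosome 8, from 71972762 to 71978369, with 1836 exonic bases. Tgm3 lies on the plus strand of chromosome 2, from 129829700 to 129892319, with 4253 exonic bases. The 3 genes therefore share no neighbourhood. Gm7850, annotated on the opposite strand within the span of Ccdc194, had 29 counts in all 60 libraries together. Within the span of Tgm3, Gm52561 had 6 counts and Mir6339 had none. Whether the counting used strand is not given in the sources used here, so reads from either strand of those stretches cannot be told apart. The nearest annotated genes of Enpp2, LOC115488560 and Gm26684, had no count, and those of Tgm3 had 28 (Gm39933) and 0 (Gm22424). The neighbours of Ccdc194, Plvap and Bst2, had 2180 and 27062 counts.

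Promoters are shown for Ccdc194 and Tgm3, the genes that matched the promoter table by symbol, while Enpp2 had no entry in it. They come from RefSeq on GRCm38.p6, a different build from that of the counts, and give the 250 bases before the annotated start, read in the direction of the gene, with each CpG dinucleotide in capitals. The first is chr8:71525726-71525975 (minus strand) and the second chr2:130012090-130012339 (plus strand).
Ccdc194: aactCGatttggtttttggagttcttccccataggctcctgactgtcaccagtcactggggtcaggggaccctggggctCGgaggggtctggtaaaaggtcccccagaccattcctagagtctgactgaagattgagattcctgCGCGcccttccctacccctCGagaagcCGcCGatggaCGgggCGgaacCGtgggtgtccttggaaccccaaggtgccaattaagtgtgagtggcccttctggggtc
Tgm3: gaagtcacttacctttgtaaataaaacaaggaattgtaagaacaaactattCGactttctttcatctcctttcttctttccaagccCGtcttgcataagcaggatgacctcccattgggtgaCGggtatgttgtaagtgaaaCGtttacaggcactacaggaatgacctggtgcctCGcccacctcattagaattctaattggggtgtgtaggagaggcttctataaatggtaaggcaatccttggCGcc
Counted over 300 bases, from 250 before to 50 after the start, the Ccdc194 promoter held 16 CpG and 61.3% G and C. The Tgm3 promoter held 7 CpG and 46.7% G and C. Of 32851 promoters of that length, 33% held at least 16 CpG and 52.1% held at least 7. The TATA box letters, here TATAAA, were found in Tgm3, starting 28 bases before the start, and in 13.6% of all promoters on either strand. GGGCGG (GC box), found in 35.7% of promoters, occurred in Ccdc194 67 bases before the start. CCAAT, found in 37.4% of promoters, occurred once in Ccdc194, 31 bases before the start, and at 2 places on the minus strand in Tgm3, 137 and 52 bases before it. CCGGAAG (ETS factors, 8.86% of promoters), TGANTCA (AP-1, 7.81%) and CTTTGAT (TCF/LEF, 3.73%), searched on both strands, were not among the letters of either window.

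Library totals ran from 2561169 to 11065948 counts (median 6055990), so that 1 count was worth 0.0904 to 0.390 CPM of the library total. Ezh2 stood at 19.9 CPM or less in the Ezh2 knockout libraries and at 154 CPM or more elsewhere, and Eed at 28.2 CPM or less in the Eed knockout and at 202 CPM or more elsewhere. Summed over 11 pluripotent markers, every library held between 3425 and 10742 CPM. Fibroblast and feeder markers summed to 18.1 to 45.6 CPM outside the Eed knockout and to 73.8 to 128 CPM in it. Over the whole transcriptome, 3 libraries correlated better with another group than with their own. These were 1A wild type 24 h replicate 1 (closest to V19 at 24 h), V19 48 h replicate 2 (closest to 1A wild type at 48 h) and V19 48 h replicate 3 (closest to V19 at 24 h). The median of 525 chromosome 8 genes stood 0.33 to 0.41 log2 units above 1A in every V19 library, against -0.062 to 0.031 in the others. Ccdc194 lies on that chromosome and stood at 12.2 CPM in V19 and 12.3 CPM in 1A wild type at 0 h, and the part of the shift in its level was not tested.

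Levels are given as CPM, the count of a gene scaled to a common library size with TMM factors, each as the mean ± SD of 3 libraries. In bulk RNA, fewer cells with a transcript and less transcript per cell cannot be told apart. Per kilobase of exon, the highest 0 h level of the 3 genes was 6.85 ± 1.81 CPM per kb for Enpp2 and 6.70 ± 1.70 for Ccdc194, both in 1A wild type, against 4.03 ± 0.407 for Tgm3 in the Ezh2 knockout. All 3 were thus weakly to moderately transcribed in serum.

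**Figure D1:**
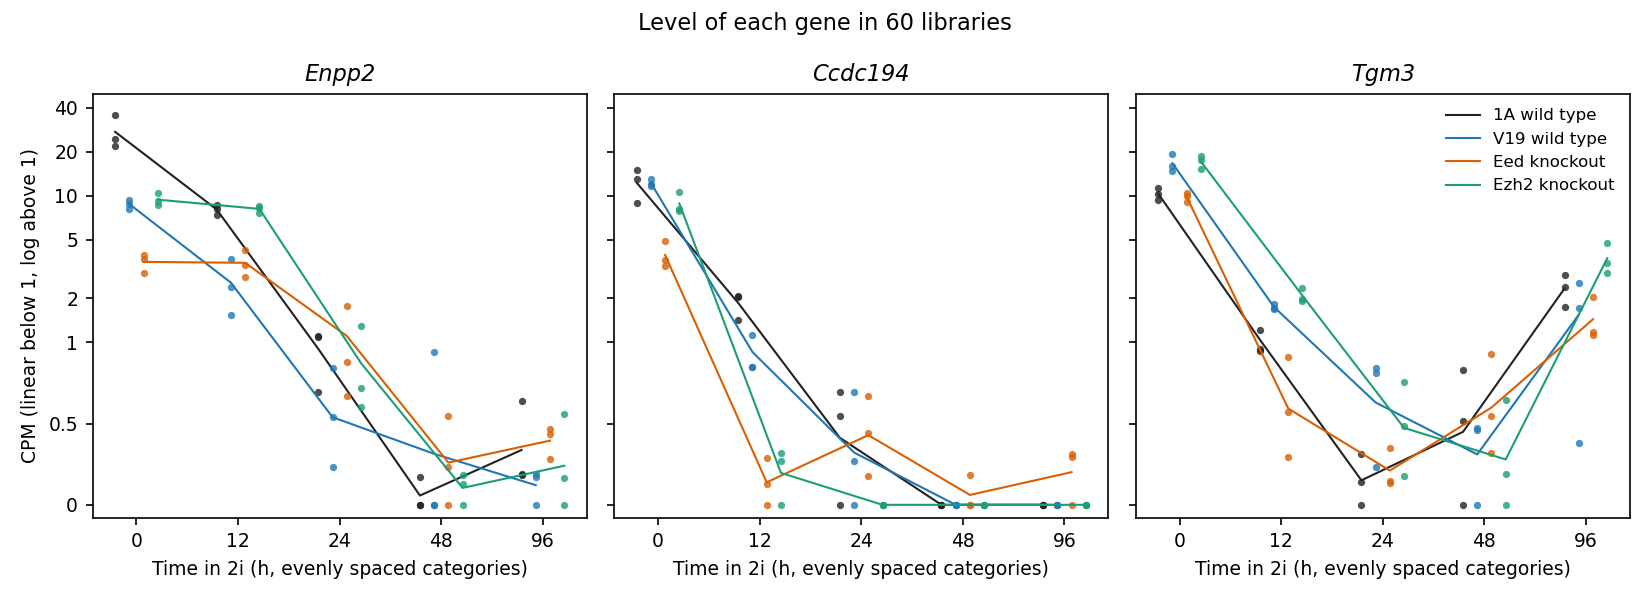
CPM of Enpp2, Ccdc194 and Tgm3 (vertical axis, linear below 1 and logarithmic above) against time in 2i for 60 libraries; points are libraries and lines join group means. Enpp2 stays near its 0 h level at 12 h in both knockout lines, Ccdc194 reaches 0 in 3 lines, and Tgm3 is lowest at 24 or 48 h and higher again at 96 h.

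In 1A wild type, where the genes were chosen, Enpp2 was the most abundant of the 3 at 0 h, with 24.4, 22.1 and 35.6 CPM in replicates 1 to 3. It stood at 8.68, 7.37 and 8.13 CPM at 12 h and at 0.693, 1.10 and 1.09 CPM at 24 h. At 48 h a single count remained in 1 of 3 libraries, and at 96 h the libraries held 4, 1 and 1 counts (0.337 ± 0.260 CPM, n = 3). The decline of autotaxin was thus gradual, with 29.5% of the 0 h level left at 12 h and 1.23% at 96 h.

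Ccdc194 in 1A wild type began at 8.88, 15 and 13 CPM, and stood at 2.05, 2.08 and 1.42 CPM at 12 h. At 24 h 1 library held no count and the others held 5 and 3. No library of this line had a Ccdc194 count at 48 h or 96 h. Taking 3 counts over the group as the limit that 0 allows, the level was at least 57.9-fold lower at 48 h and at least 68.3-fold lower at 96 h than at 0 h.

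Tgm3 in 1A wild type began at 10.4, 11.3 and 9.41 CPM and stood at 0.947, 0.961 and 1.22 CPM at 12 h. The lowest level came at 24 h, with 1, 2 and 0 counts (0.151 ± 0.157 CPM, n = 3). At 96 h the libraries held 1.75, 2.86 and 2.39 CPM, above each of the 12, 24 and 48 h libraries of the line. Tgm3 was therefore near 0 only at 24 h and 48 h. Its 96 h level of 2.33 ± 0.557 CPM was 22.5% of that at 0 h.

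Among the 13457 genes with at least 1 CPM on average in 1A wild type at 0 h, 25 had no count at 96 h, Ccdc194 among them. Ordered by the share of the 0 h level left at 96 h, lowest first, Enpp2 stood at place 30. Its neighbours in that order were Tmem54 (0.435%) and Pax6 (0.557%) below it and Jakmip2 (1.29%) and Shisa6 (1.46%) above it. Tgm3 stood at place 503, between Ajm1 (22.5%) and Dpysl4 (22.6%). At 24 h the order was different, with Tgm3 at place 15, Ccdc194 at place 26 and Enpp2 at place 30.

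In V19 wild type, which was not used to choose the genes, the same 3 genes were lower than at 0 h at every later time. Enpp2 stood at 9.43, 8.81 and 8.09 CPM at 0 h and at 2.38, 3.72 and 1.54 CPM at 12 h. Ccdc194 went from 12.0, 11.7 and 13 CPM to 0.850, 0.846 and 1.12 CPM over the same interval, and Tgm3 from 19.4, 14.8 and 16 CPM to 1.70, 1.69 and 1.82 CPM. For each gene, every 12 h library lay below every 0 h library. Tested with edgeR (quasi-likelihood, p adjusted by Benjamini-Hochberg across every gene in the fit), the 12 h changes in log2 units were -1.81 ± 0.28 (SE) for Enpp2 (adjusted p = 4.6e-07), -3.66 ± 0.34 for Ccdc194 (adjusted p = 3.6e-11) and -3.25 ± 0.26 for Tgm3 (adjusted p = 2.7e-15). In this comparison 20.8% of all genes tested were called lower. Each SE given with a log2 change was taken from the test, as the change divided by the square root of its F statistic. It does not measure counting error where few counts remained.

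At 24 h all 3 genes were again lower in V19 than at 0 h, where 19.4% of all genes were called lower. The log2 changes were -3.96 ± 0.40 for Enpp2, -5.24 ± 0.45 for Ccdc194 and -4.61 ± 0.32 for Tgm3. At 48 h, with 24.2% of all genes called lower, Enpp2 had no count in 2 libraries and 4 counts in replicate 3 (log2 change -4.55 ± 0.49, adjusted p = 3.2e-11 by edgeR). Replicate 3 is one of the libraries that stood apart. Without it Enpp2 had no count left at 48 h and kept an edgeR adjusted p of 1.0e-10, and without replicate 1 the log2 change was -3.89. Tgm3 changed by -5.48 ± 0.41 at 48 h, and by -5.12 and -5.78 without replicates 2 and 3, the libraries that stood apart.

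At 96 h 22.7% of all genes were called lower in V19, and all 3 genes again were. Enpp2 held 0, 1 and 1 counts in replicates 1 to 3 and was lower by a log2 change of -5.88 ± 0.53 (adjusted p = 1.5e-13, edgeR). That SE comes from the test statistic and does not show the counting error of so few counts. Ccdc194 had no count at 48 h or 96 h, which made it at least 45.7-fold and at least 62.7-fold lower than at 0 h. Tgm3 held 2.53, 0.380 and 1.72 CPM, with replicate 2 below the other two (log2 change from 0 h -3.47 ± 0.28, adjusted p = 3.5e-15, edgeR).

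In both knockout lines Ccdc194 and Tgm3 fell by 12 h, while Enpp2 did not pass the test. In the Eed knockout Enpp2 stood at 3.94, 2.96 and 3.71 CPM at 0 h and at 4.27, 2.80 and 3.39 CPM at 12 h. In the Ezh2 knockout it stood at 8.60, 9.16 and 10.5 CPM at 0 h and at 7.62, 8.31 and 8.49 CPM at 12 h. The Eed knockout libraries of the 2 times overlapped, while those of the Ezh2 knockout lay just below their 0 h libraries. The log2 change at 12 h was -0.08 ± 0.31 in the Eed knockout (adjusted p = 0.85) and -0.22 ± 0.20 in the Ezh2 knockout (adjusted p = 0.40), neither past the threshold in edgeR's test.

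The share of the 0 h Enpp2 level left at 12 h was 98.5% ± 21.0 in the Eed knockout and 86.5% ± 4.87 in the Ezh2 knockout, against 29.0% ± 12.5 in V19 and 29.5% ± 2.41 in 1A wild type (SD over 3 libraries at 12 h, relative to the mean at 0 h). The test of the difference between lines was made against V19. The 12 h response of Enpp2 was higher by 1.73 ± 0.42 log2 units in the Eed knockout than in V19 (adjusted p = 0.0039, edgeR), a direction in which 4.53% of all genes were called. In the Ezh2 knockout it was higher by 1.60 ± 0.35 (adjusted p = 0.0085, edgeR), where 0.61% of all genes were called. The second call rested on V19 12 h replicate 3, the lowest of its group: without it the difference was 1.29 (adjusted p = 0.079). In the authors' deposited RUV-normalized values neither difference from V19 passed limma's test (1.87, adjusted p = 0.067, in the Eed knockout and 1.58, adjusted p = 0.32, in the Ezh2 knockout). Between the 2 knockouts the 12 h responses of Enpp2 differed by 0.13 ± 0.37 (adjusted p = 0.88, edgeR), and 9.02% of all genes were called in either direction.

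**Figure D2:**
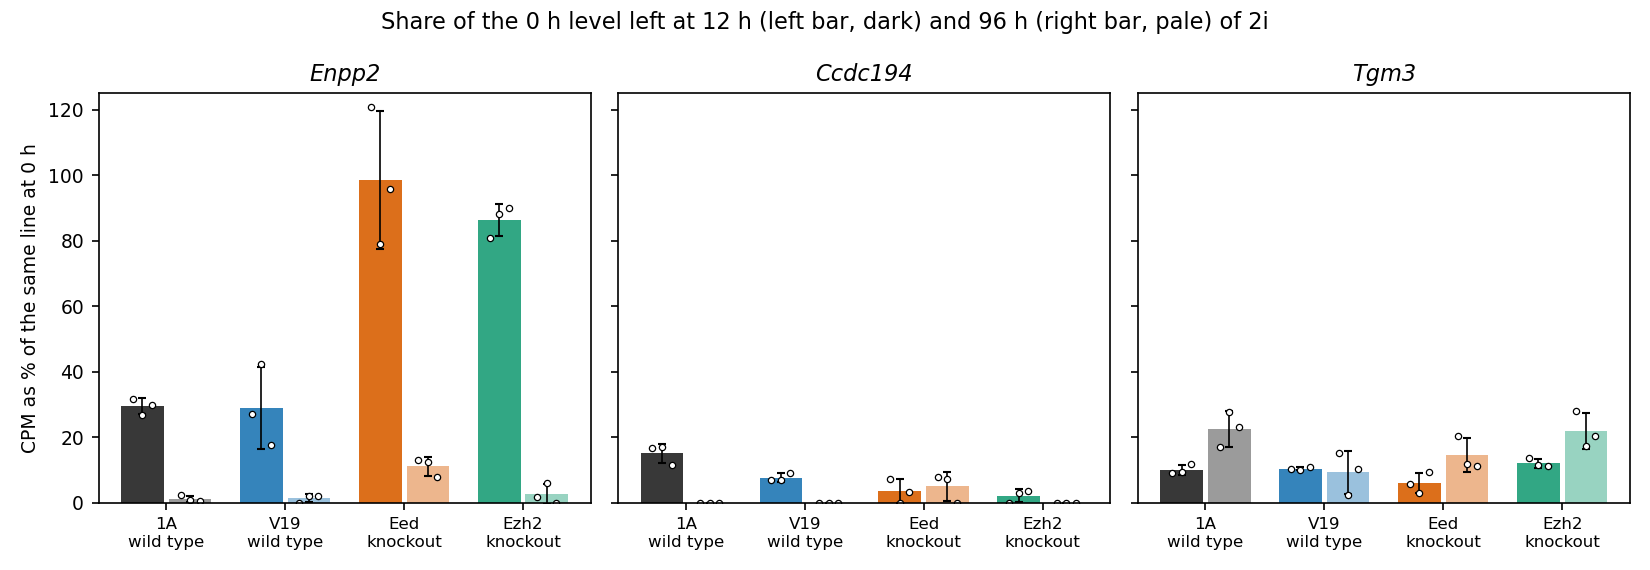
CPM at 12 h (dark bars, left) and 96 h (pale bars, right) as a percentage of the mean at 0 h of the same line, with SD over 3 libraries and open circles for libraries. At 12 h the Enpp2 bars stand at 98.5% and 86.5% in the knockouts against 29.5% and 29.0% in the wild types, while the Ccdc194 and Tgm3 bars are at most 15.1% at 12 h in every line.

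Ccdc194 in the Eed knockout went from 3.62, 3.31 and 4.90 CPM at 0 h to 1, 0 and 1 counts at 12 h (log2 change -4.91 ± 0.65, adjusted p = 8.9e-08, edgeR). In the Ezh2 knockout it went from 8.08, 7.89 and 10.6 CPM to 0, 3 and 2 counts (-5.46 ± 0.44, adjusted p = 3.8e-13). Tgm3 went from 9.13, 10.5 and 9.96 CPM to 0.570, 0.294 and 0.911 CPM in the Eed knockout (-3.96 ± 0.35, adjusted p = 1.4e-13). In the Ezh2 knockout it went from 17.5, 15.3 and 18.7 CPM to 2.34, 1.97 and 1.92 CPM (-3.02 ± 0.22, adjusted p = 1.8e-16). No 12 h library of either gene overlapped its line at 0 h. Among all genes tested, 25.2% were called lower at 12 h in the Eed knockout and 23.9% in the Ezh2 knockout. The 12 h responses of Ccdc194 and Tgm3 were not called different from V19 in either knockout. For Ccdc194 the differences were -1.25 ± 0.96 (Eed) and -1.80 ± 0.75 (Ezh2), and for Tgm3 -0.71 ± 0.53 and 0.24 ± 0.39.

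From 24 h onward Enpp2 fell in the knockout lines too. In the Eed knockout it stood at 0.879, 0.669 and 1.76 CPM at 24 h, below all 0 h libraries (log2 change -1.73 ± 0.36, adjusted p = 1.1e-04, edgeR). In the Ezh2 knockout it stood at 0.604, 0.716 and 1.29 CPM (-3.41 ± 0.34, adjusted p = 2.4e-12). The autotaxin transcript therefore passed the test 1 sampled time later in these lines than in V19. By 48 h the Eed knockout held 3, 0 and 1 counts and the Ezh2 knockout 1, 1 and 0. The log2 changes at 48 h were -3.73 ± 0.56 and -6.19 ± 0.50.

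All 3 genes were called lower at 24, 48 and 96 h in both knockouts. The shares of all genes called lower were 17.7%, 21.1% and 16.4% in the Eed knockout and 22.2%, 24% and 20.7% in the Ezh2 knockout. Ccdc194 had no count in any Ezh2 knockout library at 24, 48 or 96 h and was at least 54.1-fold, 54.3-fold and 60.7-fold lower than at 0 h. In the Eed knockout a trace remained, with 2, 5 and 3 counts at 24 h, 1, 0 and 0 at 48 h and 2, 2 and 0 at 96 h. The log2 change there was -3.27 ± 0.46 at 24 h and -4.19 ± 0.56 at 96 h. Tgm3 changed by -5.28 ± 0.38 and -5.07 ± 0.32 at 24 h in the Eed and Ezh2 knockouts.

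**Figure D3:**
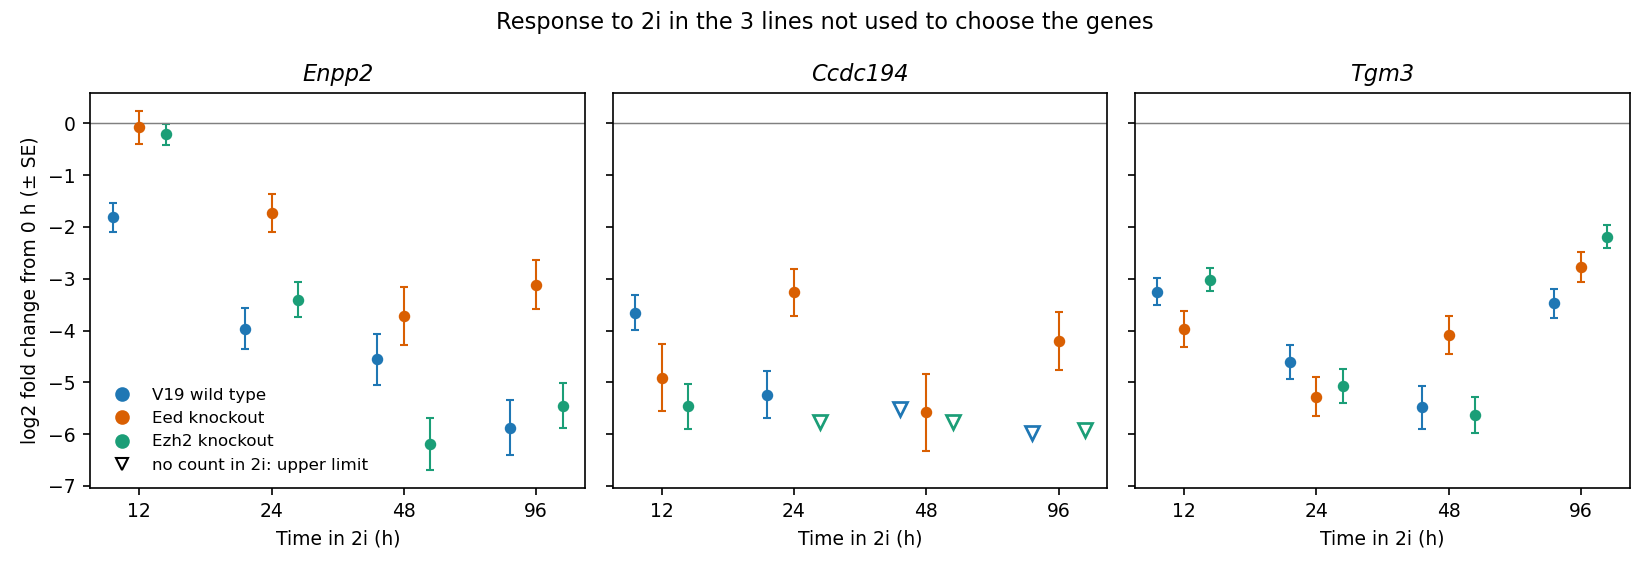
Log2 fold change from 0 h in V19, the Eed knockout and the Ezh2 knockout at 12, 24, 48 and 96 h of 2i. Bars are ± SE taken from the edgeR test and do not show the counting error of groups with few counts. Open triangles mark groups with no count, placed at the upper limit that 3 counts over the group allow. Enpp2 at 12 h lies at -0.08 and -0.22 in the knockouts and at -1.81 in V19, and Tgm3 is closer to 0 at 96 h than at 24 h in all 3 lines.

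At 96 h Enpp2 held 3, 3 and 2 counts in the Eed knockout (0.395 ± 0.100 CPM, log2 change -3.11 ± 0.47) and 1, 3 and 0 in the Ezh2 knockout (0.240 ± 0.285 CPM, -5.45 ± 0.44). The share of the 0 h level left was 11.2% ± 2.84 in the Eed knockout, 2.55% ± 3.03 in the Ezh2 knockout, 1.38% ± 1.20 in V19 and 1.23% ± 0.949 in 1A wild type. The 96 h response of Enpp2 was higher by 2.76 ± 1.07 in the Eed knockout than in V19 (adjusted p = 0.048, edgeR), with 13.7% of all genes called in that direction. This call sat at the threshold and was lost, with adjusted p up to 0.12, in 11 of the 12 fits that each left out 1 library of the 4 groups. It was also lost without the filter on low counts (adjusted p = 0.053) and with DESeq2 (adjusted p = 0.052). At 96 h the Eed knockout libraries (0.280 to 0.466 CPM) lay above those of V19 (0 to 0.190 CPM) and overlapped those of 1A wild type and the Ezh2 knockout.

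For Ccdc194 the 96 h response in the Eed knockout was also called higher than in V19 (adjusted p = 0.041, edgeR), against the same 13.7%. V19 had no count at 96 h and the Eed knockout 4 in all. With the limit of 3 counts over the V19 group the difference was 1.68 log2 units. That limit covers the counting error of the V19 group only. It takes the 4 Eed knockout counts as exact, so 1.68 is no lower bound. The call was lost in 7 of 12 fits without 1 library (adjusted p up to 0.12). The 96 h response of Ccdc194 in the Eed knockout was not called different from the Ezh2 knockout (adjusted p = 0.065, edgeR), nor was that of Enpp2 (2.34 ± 0.94, adjusted p = 0.085) or Tgm3 (-0.59 ± 0.38, adjusted p = 0.35). Other settings made the first 2 of these calls: the Ccdc194 difference passed with DESeq2 (adjusted p = 0.035), with only the compared groups in the fit (0.041) and in the RUV-normalized values (0.0083, limma), and the Enpp2 difference in the RUV-normalized values (0.015, limma). Among all genes 15.4% were called in either direction in that comparison. In the RUV-normalized values, Eed knockout replicate 3 at 96 h had a score of 1 for Ccdc194 without any count. The Ezh2 knockout libraries without a count had a score of 0.

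Tgm3 was higher at 96 h than at 24 h and 48 h on average in every line. The Eed knockout went from 0.351, 0.134 and 0.147 CPM at 24 h and 0.547, 0.319 and 0.929 CPM at 48 h to 2.02, 1.17 and 1.12 CPM at 96 h. The Ezh2 knockout went from 0.755, 0.179 and 0.485 CPM and 0, 0.646 and 0.191 CPM to 4.79, 2.96 and 3.49 CPM. In both knockouts each 96 h library lay above each 24 h and 48 h library. In V19, replicate 2 at 96 h (0.380 CPM) lay within the range of the 24 h libraries (0.231 to 0.844 CPM) and of the 48 h libraries (0 to 0.470 CPM). The difference between 96 h and 48 h was not tested.

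The change of Tgm3 was tested from 12 h to 96 h, which does not test the rise from its lowest level at 24 or 48 h. In V19 the mean was 1.74 CPM at 12 h, 0.310 CPM at 48 h and 1.54 CPM at 96 h. The log2 change over that interval was 1.19 ± 0.51 in the Eed knockout (adjusted p = 0.046), 0.83 ± 0.29 in the Ezh2 knockout (adjusted p = 0.017) and -0.22 ± 0.42 in V19 (adjusted p = 0.69, edgeR). Genes called higher between those times made up 29.8%, 21.4% and 25.4% of all genes. The Eed knockout call was lost in 3 of 6 fits without 1 library, with the lowest value, 0.81, without 12 h replicate 2, as well as without a filter on low counts (adjusted p = 0.070), with only the compared groups in the fit (0.091) and in the RUV-normalized values (0.088, limma). The Ezh2 knockout call was lost without 12 h replicate 2 (0.76) and without 96 h replicate 1 (0.64), and in the RUV-normalized values (adjusted p = 0.27, limma). Over the same interval Enpp2 fell further, with log2 changes of -4.07 in V19, -3.03 in the Eed knockout and -5.24 in the Ezh2 knockout, where 22.8%, 21.7% and 18.8% of all genes were called lower.

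At 96 h 21.9% ± 5.48 of the 0 h Tgm3 level was present in the Ezh2 knockout, 14.6% ± 5.15 in the Eed knockout, 9.25% ± 6.50 in V19 and 22.5% ± 5.38 in 1A wild type. The 96 h response of Tgm3 was higher by 1.29 ± 0.40 in the Ezh2 knockout than in V19 (adjusted p = 0.029, edgeR), a direction in which 3.98% of all genes were called. It was lost in 4 of 12 fits without 1 library and was 0.82 (adjusted p = 0.21) without V19 96 h replicate 2. In the RUV-normalized values it did not pass (1.36, adjusted p = 0.24, limma). The Eed knockout was not called different from V19 (0.70 ± 0.47, adjusted p = 0.29).

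The Eed and Ezh2 knockouts were compared directly at each time. At 0 h all 3 genes were lower in the Eed knockout, where 21.7% of all genes were called lower. The log2 differences, Eed minus Ezh2 knockout, were -1.40 ± 0.25 for Enpp2 (adjusted p = 7.2e-06), -1.16 ± 0.27 for Ccdc194 (adjusted p = 4.9e-04) and -0.80 ± 0.19 for Tgm3 (adjusted p = 3.8e-04, edgeR). The libraries of the 2 lines did not overlap for any of the 3 genes. In the authors' deposited RUV-normalized values, the same differences were -0.79, -0.43 and -0.068 log2 units and none passed the limma test. The Eed knockout libraries at 0 h also held 5959 to 6326 CPM summed over 16 primitive endoderm markers, against 1207 to 1325 CPM in the Ezh2 knockout, and 4888 to 5128 CPM summed over the pluripotent markers, against 8350 to 8500 CPM. The part of that difference in the levels of the 3 genes was not tested.

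At 12 h Enpp2 was lower in the Eed than in the Ezh2 knockout by a log2 difference of -1.27 ± 0.25 (adjusted p = 3.7e-05) and Tgm3 by -1.74 ± 0.45 (adjusted p = 0.0010, edgeR), with 24.2% of all genes called lower. Neither difference passed limma's test in the RUV-normalized values (-0.51 and -0.73). At 24 h Ccdc194, with 10 counts in all in the Eed knockout and none in the Ezh2 knockout, was called higher in the Eed knockout (adjusted p = 0.015, edgeR), with 28.1% of all genes called higher. That call was lost without Eed knockout 24 h replicate 2, which held 5 of the counts (adjusted p = 0.051). At 48 h none of the 3 genes was called, with 58.3% of all genes called in either direction. At 96 h Tgm3 was lower in the Eed knockout by -1.38 ± 0.33 (adjusted p = 4.3e-04, edgeR; 24% of all genes lower), and by -0.43 in the RUV-normalized values, where it did not pass.

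Ordered by mean CPM over the 20 groups, the 4 highest Tgm3 and Ccdc194 levels were the 4 lines at 0 h. For Enpp2 the highest 5 were 1A wild type, Ezh2 knockout and V19 at 0 h (27.4, 9.41 and 8.78 CPM), then Ezh2 knockout and 1A wild type at 12 h (8.14 and 8.06 CPM). Eed knockout at 0 h (3.54 ± 0.510 CPM) came only after them. Of the 19 pairs of neighbours in the order, 17 had overlapping libraries for Enpp2, 14 for Ccdc194 and 14 for Tgm3. The non-overlapping Enpp2 neighbours were the top pair and the step from 1A wild type at 12 h to Eed knockout at 0 h. For Ccdc194 there was no overlap from V19 at 0 h down to Ezh2 knockout at 0 h (8.87 CPM), Eed knockout at 0 h (3.94 CPM), 1A wild type at 12 h (1.85 CPM), V19 at 12 h (0.939 CPM) and Eed knockout at 24 h (0.428 CPM). For Tgm3, Ezh2 knockout and V19 at 0 h (17.2 and 16.7 CPM) overlapped, and both lay above 1A wild type and Eed knockout at 0 h (10.3 and 9.85 CPM), which overlapped each other.

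Over the 20 group means of log2 CPM, Pearson's r was 0.84 between Enpp2 and Ccdc194, 0.80 between Ccdc194 and Tgm3 and 0.65 between Enpp2 and Tgm3. These are descriptions over 20 points that share lines and time. The 1A wild type groups, which chose the genes, are among the 20, so r is not independent of the choice. The genes most like Enpp2 by this measure were Sv2a (0.948), Wdr86 (0.935), Spink1 (0.930), Ydjc (0.923) and Slc9b1 (0.919). Sv2a encodes a synaptic vesicle glycoprotein. In the knockouts it held a level at 12 h close to that at 0 h, 4.67 against 4.92 CPM with Eed deleted and 6.20 against 6.82 CPM with Ezh2 deleted, while in V19 it went from 7.81 to 4.03 CPM.

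The genes most like Ccdc194 were Shisa6 (0.967), Slc7a7 (0.962), Tcerg1l (0.958), Egr1 (0.954) and Enpp3 (0.947). Egr1, an immediate early gene switched on by ERK signalling, went in V19 from 61.8 CPM at 0 h to 0.809 CPM at 12 h. Slc7a7, an amino acid transporter subunit, went from 150 to 34.4 CPM. The genes most like Tgm3 were Ccdc3 (0.953), Spn (0.950), Zfp423 (0.945), Etv4 (0.942) and Rab27a (0.942). Etv4, an ETS transcription factor induced by FGF-ERK signalling, stood in V19 at 274 CPM at 0 h, 16.1 CPM at 12 h and 65.7 CPM at 96 h. At r above 0.90 there were 5 genes for Enpp2, 44 for Ccdc194 and 37 for Tgm3.

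**Figure D4:**
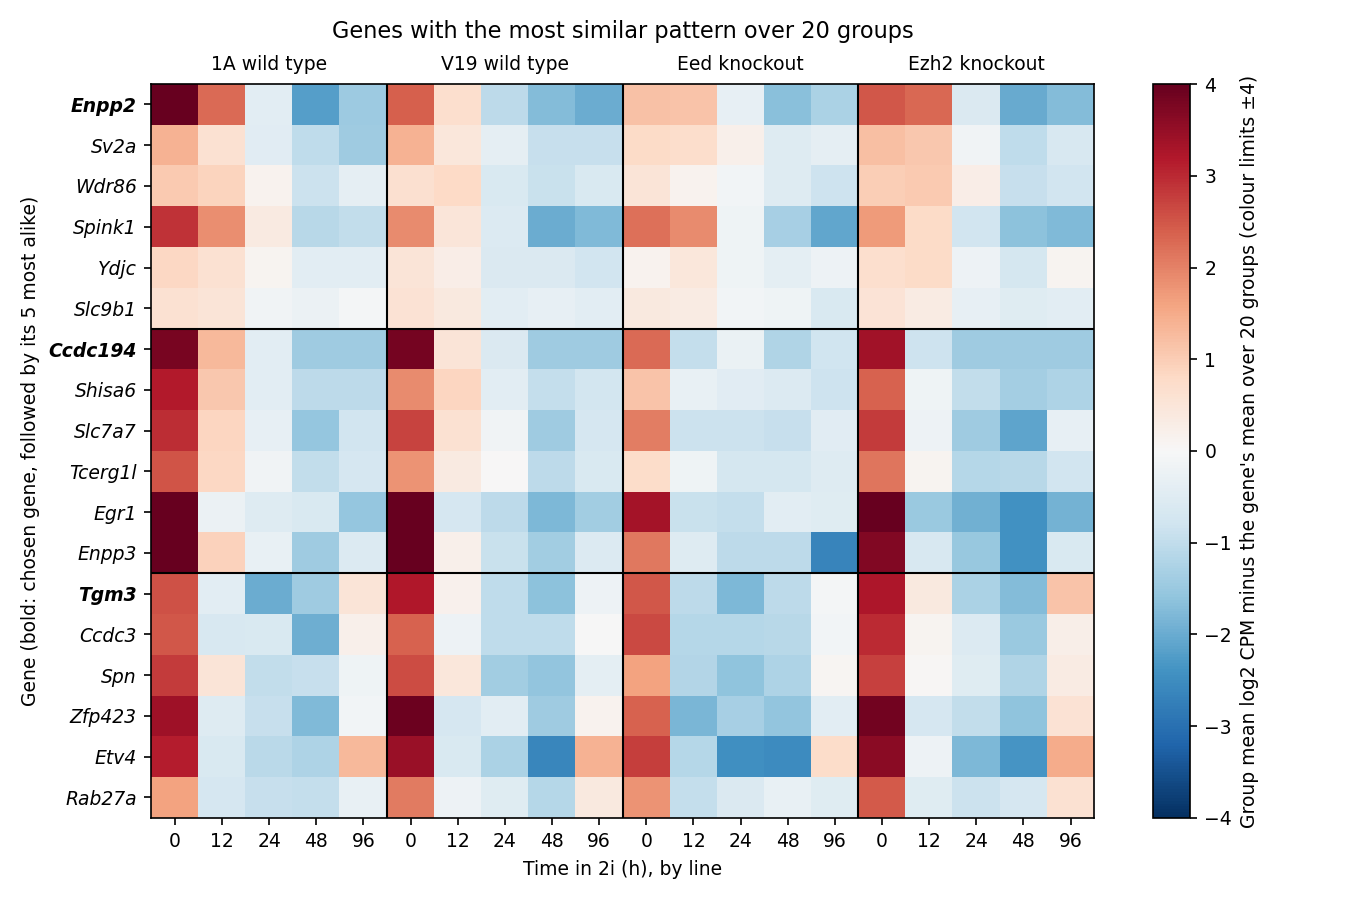
Group mean log2 CPM of Enpp2, Ccdc194 and Tgm3 (bold) and the 5 genes most like each, centred on the mean of each gene over the 20 groups; columns are lines and times in 2i and colours are limited to 4 log2 units either way. The rows of Tgm3 and Etv4 turn pale or red again at 96 h. The Enpp2 row is red at 12 h in every line, and its shade there is close to that at 0 h only in the knockouts.

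The other genes of the autotaxin pathway did not move as one. The counts of called genes that follow stand beside the shares of all genes called in the same comparison. At 96 h 22.7% of all genes were lower and 24.8% higher in V19, 16.4% and 23.3% in the Eed knockout, and 20.7% and 22.2% in the Ezh2 knockout. At 12 h 20.8% were lower and 21.5% higher in V19, 25.2% and 25.2% in the Eed knockout, and 23.9% and 26.2% in the Ezh2 knockout.

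Of the rest of the ENPP ectonucleotidase family, 4 genes were tested, and in V19 at 96 h 1 was called lower and none higher (median log2 change -0.16, against 0.01 over all genes), where 1 of 4 is close to the 22.7% of all genes. The Ezh2 knockout gave the same counts. In the Eed knockout 1 was lower and 2 were higher, Enpp1 (2.29 ± 0.26) and Enpp5 (1.10), both named after their values were seen. The one that fell was Enpp3, an ecto-enzyme that cleaves nucleotides, from 147 to 5.04 CPM (-4.86 ± 0.16, adjusted p = 3.3e-30, edgeR). Enpp3 fell by 12 h in all 3 tested lines, with log2 changes of -4.07 in V19, -2.65 in the Eed knockout and -4.36 in the Ezh2 knockout. In both knockouts Enpp3 was thus already lower at a time when Enpp2 had not passed the test.

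Of the 6 receptors for LPA, 3 were called lower and 1 higher in V19 at 96 h (median log2 change -0.33), against 22.7% and 24.8% of all genes. Lpar1 rose by 2.50 ± 0.13 (adjusted p = 2.1e-22), and rose by 0.79 ± 0.10 in the Eed knockout and 1.28 ± 0.10 in the Ezh2 knockout. Lpar2 fell by 0.95 in V19, and Lpar4 fell by 1.47. The third that fell in V19 was Lpar6, by 0.44. At 96 h 2 receptors were lower and 2 higher in the Eed knockout, and 2 lower and 1 higher in the Ezh2 knockout.

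Of 18 tested genes for the making and removal of LPA and related lysophospholipids, 3 were called lower and 7 higher in V19 at 96 h, 1 and 6 in the Eed knockout, and 3 and 6 in the Ezh2 knockout. Among all genes the higher calls made up 24.8%, 23.3% and 22.2%. Pla1a, a phospholipase that yields lysophospholipids, rose in V19 from 1.86 to 20.7 CPM (3.40 ± 0.24, adjusted p = 6.0e-17, edgeR). Plpp5, a lipid phosphate phosphatase, rose by 1.05 ± 0.19, while Agpat4, an acyltransferase that uses LPA, was lower by a log2 change of -0.70 ± 0.11. The median log2 change of these genes in V19 was 0.23.

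The 2 tested relatives of Tgm3 differed from each other. Tgm2, the widely expressed tissue transglutaminase, rose in V19 at 96 h from 4.88 to 18.5 CPM (1.93 ± 0.22, adjusted p = 1.2e-10), by 3.06 ± 0.13 in the Eed knockout and by 1.87 ± 0.16 in the Ezh2 knockout. Tgm1, the keratinocyte transglutaminase, stood at 92.9 CPM at 0 h and 76.6 CPM at 96 h in V19 (-0.28 ± 0.08, adjusted p = 0.0038, edgeR). In the Ezh2 knockout Tgm1 fell from 103 to 62.4 CPM, a log2 change of -0.73 (adjusted p = 8.2e-11, edgeR), and in the Eed knockout it did not pass (0.11, adjusted p = 0.29). No further member of the family passed the filter. Of 14 tested cornified envelope genes, 3 were called lower and 4 higher in V19 at 96 h (median log2 change -0.18), with 22.7% and 24.8% of all genes called. In the Eed knockout 3 were lower and 4 higher, and in the Ezh2 knockout 5 and 4. In V19 at 96 h the cornified envelope scaffold genes Ppl and Evpl changed by -3.01 and -1.40 log2 units, and Padi4, a peptidylarginine deiminase, rose by 2.08. Ppl and Evpl changed by -3.56 and -2.40 in the Ezh2 knockout. In the Eed knockout Ppl changed by 0.27 ± 0.19 and Evpl by -0.04 ± 0.18, neither past the threshold. Surface ectoderm and keratinocyte markers summed to 30.2 to 76.6 CPM outside the Eed knockout and to 130 to 247 CPM in it, and 4 of 10 were tested.

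Most genes that report ERK activity were called lower in all 3 tested lines. Of 17 tested feedback regulators and targets of ERK, all 17 were called lower at 12 h in V19 and in the Ezh2 knockout and 16 in the Eed knockout, with medians of -1.70, -1.76 and -1.88 log2 units. Among all genes 20.8%, 23.9% and 25.2% were lower in these comparisons. Spry4 and Dusp6, feedback inhibitors of the pathway, changed by -7.45 and -5.65 log2 units at 12 h in the Eed knockout and by -3.83 and -3.54 at 96 h. Egr1 changed at 12 h by -4.67 log2 units in the Eed knockout and by -6.40 in the Ezh2 knockout. At that time Enpp2 had not passed the test in either knockout. At 96 h 15 of the 17 were called lower in V19, 12 in the Eed knockout and 15 in the Ezh2 knockout, against 22.7%, 16.4% and 20.7% of all genes. The Eed knockout also had 1 higher call, Etv5, an ETS factor (0.36, adjusted p = 0.0016, edgeR), named after its value was seen.

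Of 15 tested factors of formative and primed pluripotency, 14 were lower and 1 higher in V19 at 12 h, 12 and 1 in the Eed knockout and 14 and 1 in the Ezh2 knockout. Among all genes 20.8%, 25.2% and 23.9% were lower. At 96 h the counts were 11 lower and 1 higher in V19, 10 and 2 in the Eed knockout and 11 and 3 in the Ezh2 knockout, where 22.7%, 16.4% and 20.7% of all genes were lower. Tead2 was higher at both times in each line, with 0.36 at 96 h in V19, and was named after its values were seen. Lef1, a transcription factor of the Wnt pathway, changed in V19 by -3.67 ± 0.20 at 12 h and -5.26 ± 0.26 at 96 h, to 0.916 CPM. Dnmt3a, a de novo DNA methyltransferase, changed by -3.02 ± 0.11 and -3.56 ± 0.11. In the Eed knockout the 12 h changes of these genes were -2.21 ± 0.21 and -1.18 ± 0.10.

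Markers of other cell types moved beside these results. Of 14 tested primitive endoderm markers, 9 were called lower in V19, 14 in the Eed knockout and 12 in the Ezh2 knockout at 96 h, against 22.7%, 16.4% and 20.7% of all genes. In V19 1 was higher, Sparc, an extracellular matrix protein gene (0.69, named after its value was seen). Their summed level went from 5959 to 6326 CPM at 0 h to 2405 to 2690 CPM at 96 h in the Eed knockout, and from 805 to 911 CPM to 850 to 942 CPM in V19. Trophoblast markers summed to 477 to 979 CPM in the Eed knockout and to 54.5 to 194 CPM in the other lines. No marker of any list was at 0 in all libraries, and the part of these cells in the levels of Enpp2, Ccdc194 and Tgm3 was not tested.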

How the data were processed

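Raw read counts per gene were deposited as a whole-number table of 60 libraries. Per the submitters' processing notes, the authors used STAR 2.7.10b, featureCounts 2.0.3, MultiQC 1.14 and DESeq2, with the GRCm39 (mm39) build. Per the labels, libraries were single-read NEBNext Ultra II. The authors also deposited RUV-normalized values, rounded to whole numbers and used here only as a score in an alternative. Their further settings are not given in the sources used here.

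Counts were scaled with TMM and tested with edgeR 4.0.16 in R 4.3.3 (glmQLFit, glmQLFTest) in 1 model of 20 groups with 40 residual degrees of freedom. Genes passed filterByExpr (minimum count 10, minimum total 15). Calls needed an adjusted p under 0.05 (Benjamini-Hochberg over 15083 genes, 26 comparisons). Log2 CPM for the correlations between genes and between libraries used a prior count of 2. The fitted log2 changes used edgeR's default prior count. A floor of 3 counts per group covers counting error only. Reads without molecular identifiers are not independent molecules. The fit was tested on simulated data. limma 3.58.1 and DESeq2 1.42.0 served as alternatives.

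The genes, lists and comparisons were chosen with earlier results of these data known. Named genes were the 3 genes, the 5 most correlated with each (predicted genes left out), up to 4 per list with the smallest adjusted p in V19 at 96 h, neighbours in the genome and in rank, Ezh2 and Eed. Promoters were matched by symbol in a RefSeq table (2 of 3 genes).

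Replicate numbers were shared between groups. Within 20 pairs of groups, the correlation of deviations between libraries with the same number ran from -0.19 to 0.29, and in none was every pair over 0.1, so no block was used. Replicates differed beyond sampling noise (chi-square per degree of freedom 1.13 to 25.6 over 60 pairs).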

Additional observations from a re-analysis of the deposited data

Results flagged for a closer look

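In all, 5 responses of the 3 genes were called different between lines by a test of the difference itself (edgeR, adjusted over all genes). Each of these calls was lost under another setting or with a library left out, as given above. Among all genes, 4.53% (Eed knockout) and 0.61% (Ezh2 knockout) were called higher than in V19 at 12 h. At 96 h the shares were 13.7% and 3.98%. At 12 h the Enpp2 response was higher by 1.73 log2 units in the Eed knockout and by 1.60 in the Ezh2 knockout than in V19. At 96 h the Enpp2 response was higher by 2.76 in the Eed knockout than in V19. The Ccdc194 response was higher by 1.68 with the limit of 3 counts over the V19 group, which had no Ccdc194 count at 96 h. That value takes the few Eed knockout counts as exact and is no lower bound. The 96 h response of Tgm3 was higher by 1.29 in the Ezh2 knockout than in V19. Each comparison was made with V19, since 1A wild type had served to choose the genes, so that the difference in PRC2 and the difference between the 1A and V19 backgrounds cannot be told apart in these tests.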

How the results depend on the processing

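Of 76 tested results, 52 passed the threshold, and the shares of all genes called stand with each comparison above. Ccdc194 results with at most 3 counts in each 2i group compared are not among the 76. These were Eed against Ezh2 knockout at 48 h and the 96 h response of the Ezh2 knockout against V19, neither of them called. Under 7 other settings 509 of 531 values kept their side of the threshold, and 525 of 558 values did so with 1 library left out. No called value changed direction. Values that were not called could change direction and still count as kept. For Ccdc194 at 12 h, Eed against Ezh2 knockout ran from -0.66 to 0.58 over the settings. RLE size factors and a filter at a mean of 1 CPM changed no call. A fit with the replicate number as a block changed none of 76 (for Enpp2 at 12 h in V19 it gave -1.82, against -1.81 without it); 24 of 60 pairs correlated best with their own number. Without a filter, Tgm3 from 12 h to 96 h in the Eed knockout was 1.21 (adjusted p = 0.070) and the 96 h Enpp2 difference between the Eed knockout and V19 was 2.77 (0.053), so that neither passed. With only the compared groups in the fit, that Tgm3 value was 1.13 (0.091), and the 96 h Ccdc194 difference between the Eed and Ezh2 knockouts became a call at 4.66 (0.041), as it did with DESeq2 at 4.03 (0.035). DESeq2 gave 2.92 (0.052) for the 96 h Enpp2 difference between the Eed knockout and V19.

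With limma on the RUV-normalized score, 11 calls were lost. They were Tgm3 from 12 h to 96 h in the Eed (1.03) and Ezh2 (0.73) knockouts, Eed against Ezh2 knockout at 0 h for Enpp2 (-0.79), Ccdc194 (-0.43) and Tgm3 (-0.068), at 12 h for Enpp2 (-0.51) and Tgm3 (-0.73) and at 96 h for Tgm3 (-0.43), the 12 h Enpp2 differences from V19 in the Eed (1.87) and Ezh2 (1.58) knockouts, and the 96 h Tgm3 difference between the Ezh2 knockout and V19 (1.36). Calls were gained for Eed against Ezh2 knockout in Tgm3 at 48 h (1.76), in Enpp2 (1.50) and Ccdc194 (1.88) at 96 h, and in the 96 h responses of Enpp2 (2.29) and Ccdc194 (2.31). For Ccdc194 at 96 h, Eed knockout replicate 3 had no count and a score of 1, while Ezh2 knockout libraries without a count had a score of 0. The Enpp2 share left at 96 h in the Eed knockout became 16.1%. The cause was not tested.

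With 1 library left out, the results that crossed the threshold ranged as follows. The 96 h difference of Eed from Ezh2 knockout was 4.16 to 5.13 for Ccdc194 and 1.56 to 3.66 for Enpp2, and that of Eed knockout from V19 was 4.62 to 5.60 for Ccdc194 and 2.34 to 3.10 for Enpp2. Eed against Ezh2 knockout in Ccdc194 was 3.85 to 4.80 at 24 h and 2.99 to 3.97 at 96 h. Ccdc194 from 12 h to 96 h in the Ezh2 knockout was -3.90 to -2.78. The 12 h Enpp2 difference of Ezh2 knockout from V19 was 1.29 to 1.96, and the 96 h Tgm3 difference was 0.82 to 1.74. Tgm3 from 12 h to 96 h was 0.81 to 1.82 in the Eed knockout and 0.64 to 0.94 in the Ezh2 knockout. The widest range was that of Enpp2 at 48 h in V19, -8.75 without replicate 3, which left no count, to -3.89 without replicate 1. Other groups with a few counts moved too: at 48 h, Enpp2 in the Eed knockout was -4.96 without replicate 1 and -3.06 without replicate 2, Ccdc194 there was -7.60 without replicate 1, and Tgm3 in the Ezh2 knockout was -7.25 without replicate 2. Fitted values of Ccdc194 against groups without a count depend on edgeR's default prior count and are no sizes. Depth limits all levels below about 0.390 CPM, the worth of 1 count in the smallest library, where a few counts set a library's value.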
